A study of Mus musculus with 16 samples.

Results

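Pecam1 (ENSMUSG00000020717), Satb1 (ENSMUSG00000023927) and S1pr1 (ENSMUSG00000045092) were followed across 16 RNA-seq libraries of purified mouse CD4 T cells. These 3 genes were taken by name from the 8552 genes that the authors' deposited table lists, and all 3 could be joined to 1 of its 17850 rows of values. That table lists only genes with a negative log2 fold change in Sin3A-deficient against Sin3A-sufficient Th17 cells. A lower level in deficient Th17 cells is therefore how the genes came to be nameable, and it is described here without a test. The genes were thus selected on the authors' log2 fold change in that contrast, and picked with earlier results of these data known.

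All cells came from C57BL/6J mice of 2 months with the genotype Rosa26-CreERT2 +/- and Sin3A F/F, in which a ubiquitously expressed, tamoxifen-activated Cre recombinase removes floxed parts of Sin3a. Sin3A holds together a corepressor complex that contains histone deacetylases. Th17 deficient cells spent 6 days in IL-7 with tamoxifen and then 3 days in Th17-polarizing culture, and Th17 sufficient cells went through the same steps without tamoxifen. IL-7 deficient and IL-7 sufficient cells were taken after the 6 days in IL-7, with and without tamoxifen. Each group held 4 libraries, with titles starting D3TAM (Th17 deficient), D3 (Th17 sufficient), BASALTAM (IL-7 deficient) or BASAL (IL-7 sufficient) and ending in 1 of 4 numbers that recur in every group. No column of the deposited table is headed BASALTAM959, and the column headed BASAL_AM959 was taken as that library because it matches no other title. The number of BASAL959 is labelled female and the other 3 male. Whether a number marks 1 mouse is not stated, and p-values therefore cover only the spread between these libraries, which may be technical. Every deficient culture had tamoxifen and no sufficient one did, so drug and deletion cannot be told apart.

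The 3 genes were grouped here as genes of the naive state. For Satb1, no fall was detected between IL-7 sufficient and Th17 sufficient cells, as given below. The products of the 3 genes have different jobs. PECAM1 (CD31) is an adhesion receptor of the immunoglobulin family whose cytoplasmic inhibitory motifs recruit the phosphatases SHP-1 and SHP-2, and among T cells it is found mostly on naive ones. SATB1 is a nuclear protein that organizes chromatin loops and is needed for T cell development. S1PR1 is the receptor for sphingosine 1-phosphate that lets lymphocytes leave lymphoid organs, and activated T cells take it off their surface and shut down its transcription while they stay to divide.

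The libraries held 19750746 to 28786947 reads after restoring. Libraries of 1 group correlated at r = 0.978 to 0.992 over the 13978 tested rows, and none stood apart from its group. Reads were restored by the agreement of libraries within a group, so part of this correlation is built in. Sin3a, the targeted gene, averaged 1774 ± 49.8 normalized counts in Th17 deficient and 2106 ± 181 in Th17 sufficient libraries, and 2211 ± 98.2 in IL-7 deficient and 2524 ± 249 in IL-7 sufficient ones (SD, n = 4 each). In IL-7 cells its log2 change was -0.19 and did not pass (limma adjusted p = 0.183). In Th17 cells it was -0.24, given without a test because Sin3a, too, could be named only through the authors' list of that contrast. Sin3a was also lower in Th17 than in IL-7 cells. Its log2 change was -0.26 in sufficient cells (limma adjusted p = 0.00491) and -0.32 in deficient cells (limma adjusted p = 0.00102). In each of these comparisons 41% of all rows were called lower. Which exons are floxed is not stated, and a count over the whole gene can miss their loss. How complete the deletion was cannot be read from these counts and was not tested. Of 8 T cell markers, the 5 with values (Cd247, Cd3d, Cd3e, Cd4 and Thy1) were present in every library. All 5 are on the authors' list and were so chosen as lower in Th17 deficient cells, while Cd3g, Cd28 and Lat were not analysed here. Their summed level was 26012 to 30166 normalized counts in Th17 deficient, 41272 to 45022 in Th17 sufficient, 55930 to 59719 in IL-7 deficient and 60250 to 67535 in IL-7 sufficient libraries. The low sum in Th17 deficient libraries is built into that choice, and its part in the levels of the 3 genes was not tested. In bulk RNA, fewer cells of a kind and less RNA per cell cannot be told apart.

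Promoter sequence was matched for 1 of the 3 genes, Satb1, which has 5 annotated starts in RefSeq on the minus strand of chromosome 17 (GRCm38.p6). The 300-base windows around these starts held CACCC, the core of the box bound by Krüppel-like factors, read on both strands as CACCC or GGGTG, 2, 0, 3, 3 and 1 times in order from the most upstream start. The windows of starts 4 and 5 overlap. Of all 32851 promoter windows of this length, 57.5% held this motif at least once, so its presence is common. None of the 5 windows held GTAAACA (a FOXO motif, in 3.65% of all windows) or TTCNNNGAA (a STAT motif, in 8.3% of all windows), each read on both strands. The windows of starts 2 and 3 are shown as the extremes of this set in CpG. Start 2 has 45 CpG dinucleotides and 76.7% G and C, and start 3 has 3 CpG and 56% G and C. Capitals mark CACCC or GGGTG, and both are read 5′ to 3′ on the gene's strand. Reads were counted per gene, so the data do not say which start was used.
Satb1 start 2, chr17:51832598-51832897: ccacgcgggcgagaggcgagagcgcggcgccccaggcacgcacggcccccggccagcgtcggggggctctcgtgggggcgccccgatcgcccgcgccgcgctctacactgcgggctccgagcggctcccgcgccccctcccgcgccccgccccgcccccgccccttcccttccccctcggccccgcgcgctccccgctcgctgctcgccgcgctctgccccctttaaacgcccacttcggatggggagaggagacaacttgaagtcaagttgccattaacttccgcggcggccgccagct
Satb1 start 3, chr17:51826539-51826838: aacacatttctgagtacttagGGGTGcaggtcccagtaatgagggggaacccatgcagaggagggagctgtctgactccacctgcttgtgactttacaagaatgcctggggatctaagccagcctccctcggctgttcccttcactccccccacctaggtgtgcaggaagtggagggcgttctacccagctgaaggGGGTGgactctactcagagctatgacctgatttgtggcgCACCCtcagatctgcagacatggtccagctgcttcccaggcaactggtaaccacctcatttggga

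**Figure D1:**
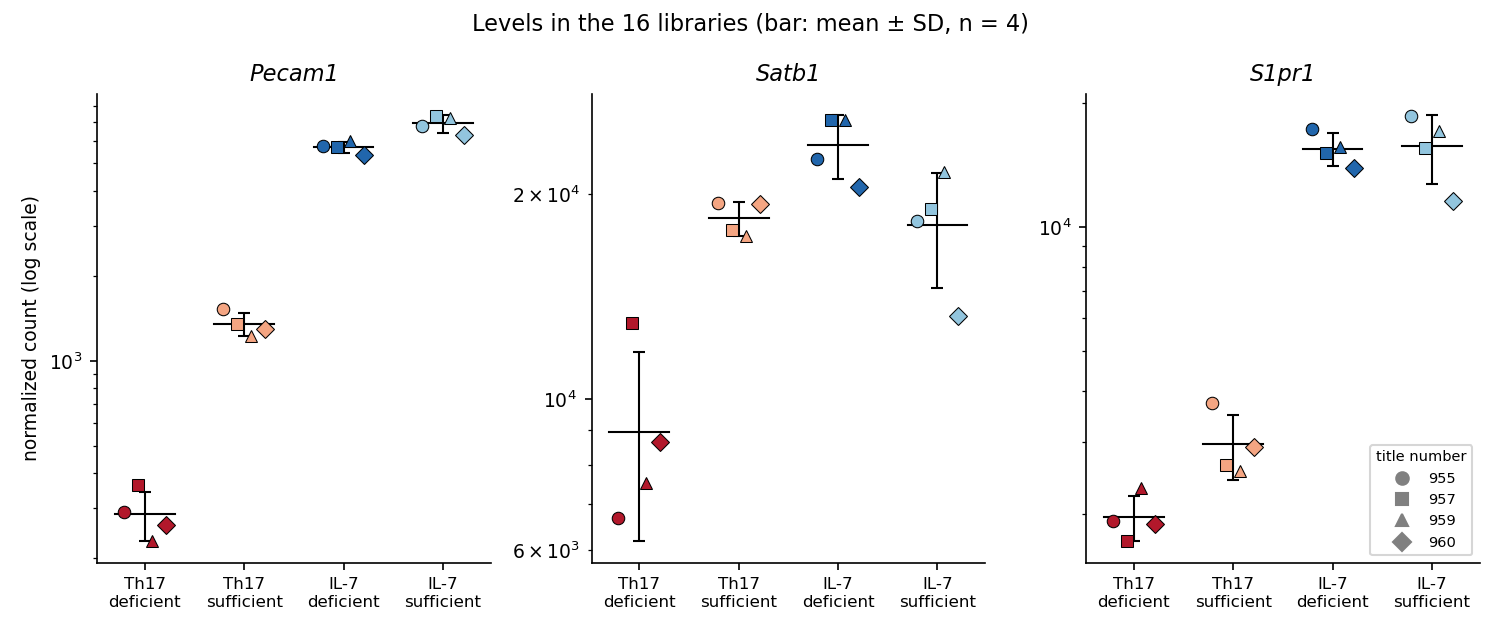
Normalized counts of Pecam1, Satb1 and S1pr1 in each library, on log axes that differ between panels. Symbols give the title number, horizontal lines the mean and bars the SD (n = 4). Pecam1 falls into 4 separate groups, Satb1 is low in Th17 deficient cells, and S1pr1 is low in both Th17 groups.

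Pecam1 had the widest range of the 3 genes. It stood at 291, 363, 229 and 263 normalized counts in Th17 deficient libraries D3TAM955, D3TAM957, D3TAM959 and D3TAM960, against 1521, 1349, 1224 and 1298 in Th17 sufficient libraries with the same order of numbers. In IL-7 deficient libraries it stood at 5772, 5727, 6002 and 5357, against 6810, 7392, 7256 and 6286 in IL-7 sufficient libraries. No group overlapped another, and the order from low to high was Th17 deficient, Th17 sufficient, IL-7 deficient and IL-7 sufficient. The means were 286 ± 57.2 in Th17 deficient, 1348 ± 126 in Th17 sufficient, 5714 ± 267 in IL-7 deficient and 6936 ± 500 in IL-7 sufficient cells (SD, n = 4 each).

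Satb1 kept a high level in all but 1 group. It stood at 6688, 12914, 7524 and 8629 normalized counts in Th17 deficient libraries D3TAM955, D3TAM957, D3TAM959 and D3TAM960, against 19388, 17722, 17342 and 19336 in Th17 sufficient libraries with the same order of numbers. In IL-7 deficient libraries it stood at 22550, 25698, 25731 and 20517, against 18288, 19048, 21532 and 13255 in IL-7 sufficient libraries. The Th17 deficient libraries lay below every other library, and D3TAM957 was the highest among them. IL-7 deficient and IL-7 sufficient libraries overlapped, as did Th17 sufficient and IL-7 sufficient ones. The means were 8939 ± 2767 in Th17 deficient, 18447 ± 1068 in Th17 sufficient, 23624 ± 2553 in IL-7 deficient and 18031 ± 3472 in IL-7 sufficient cells (SD, n = 4 each).

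S1pr1 separated the cultures. It stood at 1929, 1727, 2318 and 1899 normalized counts in Th17 deficient libraries D3TAM955, D3TAM957, D3TAM959 and D3TAM960, against 3722, 2642, 2554 and 2914 in Th17 sufficient libraries with the same order of numbers. In IL-7 deficient libraries it stood at 17320, 15142, 15670 and 13903, against 18580, 15550, 17130 and 11579 in IL-7 sufficient libraries. Every Th17 library lay far below every IL-7 library, the 2 IL-7 groups overlapped, and the 2 Th17 groups did not. The means were 1968 ± 250 in Th17 deficient, 2958 ± 532 in Th17 sufficient, 15509 ± 1416 in IL-7 deficient and 15710 ± 3019 in IL-7 sufficient cells (SD, n = 4 each).

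The first question was whether Sin3A deficiency changed the genes in resting cells kept in IL-7, a comparison that shares no library with the one behind the authors' list. None of the 3 genes passed the test there. Pecam1 was lower in IL-7 deficient cells by a log2 change of -0.28 (SE 0.11, limma adjusted p = 0.165), in libraries that did not overlap and in 4 of 4 numbers. Its 95% interval ran from -0.51 to -0.05. Satb1 had a log2 change of 0.41 (SE 0.17, limma adjusted p = 0.186) with an interval from 0.05 to 0.76, and was higher in 4 of 4 numbers. S1pr1 had a log2 change of -0.0011 (SE 0.14, limma adjusted p = 0.999) with an interval from -0.29 to 0.29. These intervals are not adjusted for the number of rows tested. The separation of libraries and the signs by number are descriptions, and their share over all rows was not counted. Over all 13978 rows, 2.11% were called higher and 2.39% lower, 629 rows in all, and over the 6427 named genes 0.7% were called higher and 3.69% lower. Single libraries moved that count: leaving out BASALTAM957 gave 251 rows, BASALTAM955 gave 316, BASAL957 gave 341 and BASALTAM959 gave 377. Dropping all 4 libraries numbered like BASAL957 left 44 rows, and dropping all 4 numbered like BASAL959 left 140. The spread in this test was estimated over all 16 libraries, the Th17 ones included. Fitted on the IL-7 libraries alone, Pecam1 had the same log2 change with an SE of 0.067 and passed (limma adjusted p = 0.0489).

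The second question was what Th17 polarization did in sufficient cells. Pecam1 and S1pr1 fell and Satb1 did not change detectably. Pecam1 fell by 2.36 on the log2 scale, a level 5.15-fold lower in Th17 sufficient than in IL-7 sufficient cells (SE 0.11, limma adjusted p = 4.72e-12). S1pr1 fell by 2.40, or 5.29-fold (SE 0.14, limma adjusted p = 7.16e-11). Satb1 had a log2 change of 0.05 (SE 0.17, limma adjusted p = 0.778) with a 95% interval from -0.30 to 0.40. Its direction turned without BASAL960, the lowest library of that group (log2 change -0.09). Over all rows 36.2% were called higher and 41% lower in this comparison (40.2% and 36.7% of named genes), so a fall by itself was common. It shares the Th17 sufficient libraries with the contrast behind the authors' list.

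The third question was what polarization did in deficient cells, and here all 3 genes fell. Pecam1 fell by 4.33 on the log2 scale, to a level 20.2-fold lower in Th17 deficient than in IL-7 deficient cells (SE 0.11, limma adjusted p = 5.39e-15). S1pr1 fell by 2.98, or 7.90-fold (SE 0.14, limma adjusted p = 3.88e-12). Satb1 fell by 1.44, or 2.72-fold (SE 0.17, limma adjusted p = 3.43e-07). Over all rows 38.1% were called higher and 41% lower, and over the 6427 named genes, which the authors list as lower in Th17 deficient cells, 28.3% were called higher and 51.4% lower. This comparison shares the Th17 deficient libraries with the contrast behind the list, which favours lower values in it.

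**Figure D2:**
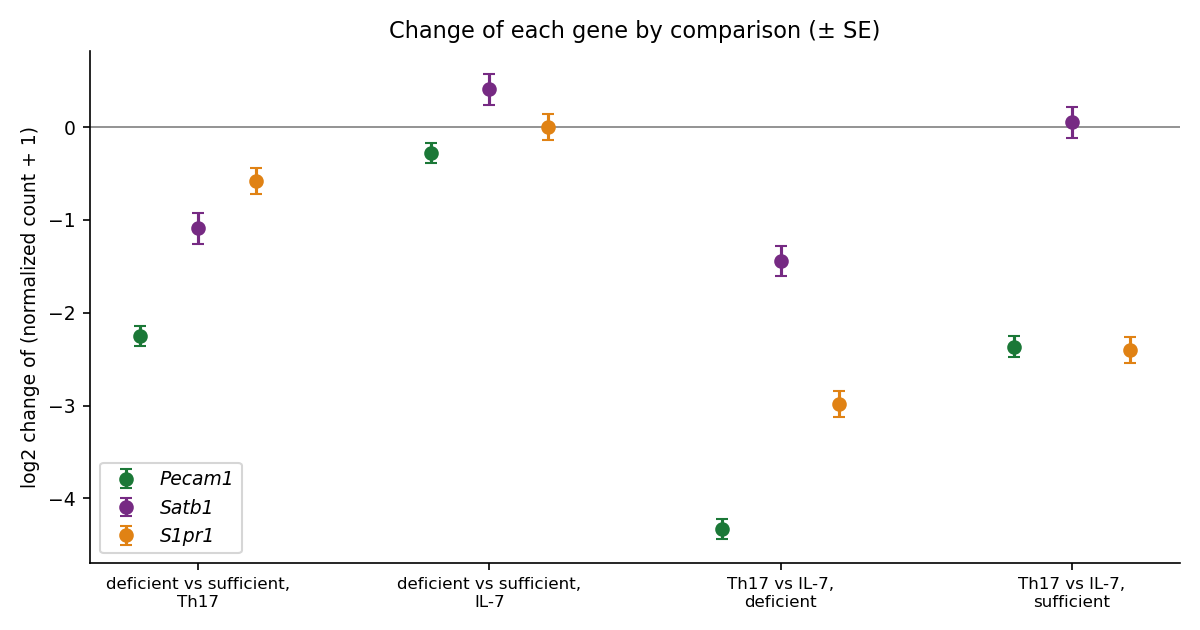
Log2 change of each gene with its SE, on the log2(normalized count + 1) scale, in the 4 comparisons, from 1 fit over 16 libraries. Satb1 lies near 0 for Th17 against IL-7 in sufficient cells and at -1.44 in deficient cells, while Pecam1 and S1pr1 are below -2 in both.

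Between deficient and sufficient Th17 cells the 3 genes differed in size, which is given as a description because this contrast made them nameable. The log2 change was -2.25 for Pecam1, a level 4.74-fold lower, -1.09 for Satb1, 2.13-fold lower, and -0.58 for S1pr1, 1.49-fold lower. The authors' deposited table gives -2.23 for Pecam1, -1.05 for Satb1 and -0.59 for S1pr1. Names were joined to rows by these very values, so their closeness to the changes given here is built in. Of all rows, 27.9% were called lower and 29.1% higher in this contrast, and nothing is read from the 3 genes against that share. By number, Pecam1 ranged from -2.41 to -1.89, Satb1 from -1.54 in D3TAM955 to -0.46 in D3TAM957, and S1pr1 from -0.95 in D3TAM955 to -0.14 in D3TAM959, each against the D3 library of its number. D3TAM957 had the smallest change for Pecam1 and Satb1, and D3TAM959 for S1pr1.

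By number, the difference between deficient and sufficient libraries had opposite signs in the cultures for Satb1, and the values below are a description. How many of all rows share such signs was not counted. In IL-7 cells Satb1 was higher in deficient libraries by 0.26 to 0.63, and in Th17 cells lower in all 4 numbers. Pecam1 was lower by log2 changes of -0.37 to -0.23 in IL-7 cells. S1pr1 ranged from -0.13 to 0.26 in IL-7 cells. The change in Th17 cells minus that in IL-7 cells was -1.97 for Pecam1, -1.50 for Satb1 and -0.58 for S1pr1, again without a test.

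**Figure D3:**
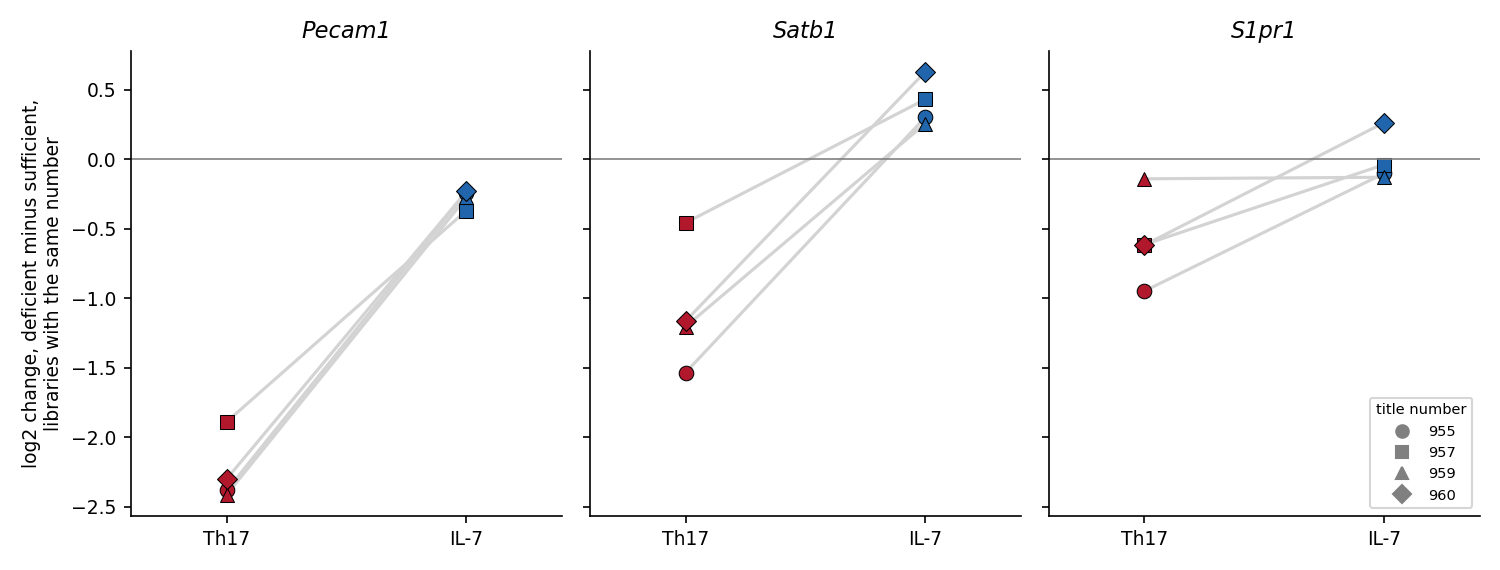
Log2 change between deficient and sufficient libraries with the same title number, in Th17 cells on the left of each panel and in IL-7 cells on the right, with grey lines joining a number. All 4 numbers cross 0 for Satb1, while all values of Pecam1 lie below 0.

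The wider list of 26 genes of naive and quiescent T cells held 12 that could be named and tested, the 3 genes included. All 12 are genes the authors list as lower in Th17 deficient cells, so the other 14 were not analysed here. In IL-7 cells 0 of 12 were called in either direction with limma, and 2 (Pecam1 and Satb1) had an unadjusted p under 0.05. The share of all rows under that unadjusted p was not counted. Nothing is read from such counts, here or for the lists below. The median log2 change was -0.002, against 0.002 over all rows and -0.05 over named genes. When only the IL-7 libraries were fitted, 3 were called lower, namely Pecam1, Bcl2 and Nsg2, which were singled out after their values were seen. In that fit 2.24% of all rows and 3.49% of named genes were called lower. In sufficient cells, polarization lowered 9 of 12 and raised 1, with a median of -1.49. Beside this, 41% of all rows and 36.7% of named genes were called lower, 36.2% of all rows and 40.2% of named genes higher, and the median was -0.07 over all rows and 0.04 over named genes. Txk, a Tec-family kinase, fell by 3.84 on the log2 scale (limma adjusted p = 4.29e-12). Nsg2 (log2 change -3.37), the survival gene Bcl2 (-1.66) and the IL-7 receptor gene Il7r (-1.32) fell too, all past the test. The gene that rose was Cdkn1b, the cell cycle inhibitor p27, with a log2 change of 0.37 (limma adjusted p = 0.0118), a call that was lost once the 4 libraries numbered like BASAL960 were dropped. Satb1 and Btg1 were not called.

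In deficient cells, polarization lowered 12 of 12, with a median of -2.0. Here 41% of all rows and 51.4% of the named genes were called lower, with medians of -0.06 over all rows and -0.36 over the named genes, and the list behind the names favours lower values. The log2 changes were -5.35 for Txk, -3.48 for Nsg2, -2.42 for Bcl2 and -1.58 for Il7r, all past the test. Cdkn1b, higher after polarization in sufficient cells, fell by 0.86 in deficient cells (limma adjusted p = 5.77e-06).

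**Figure D4:**
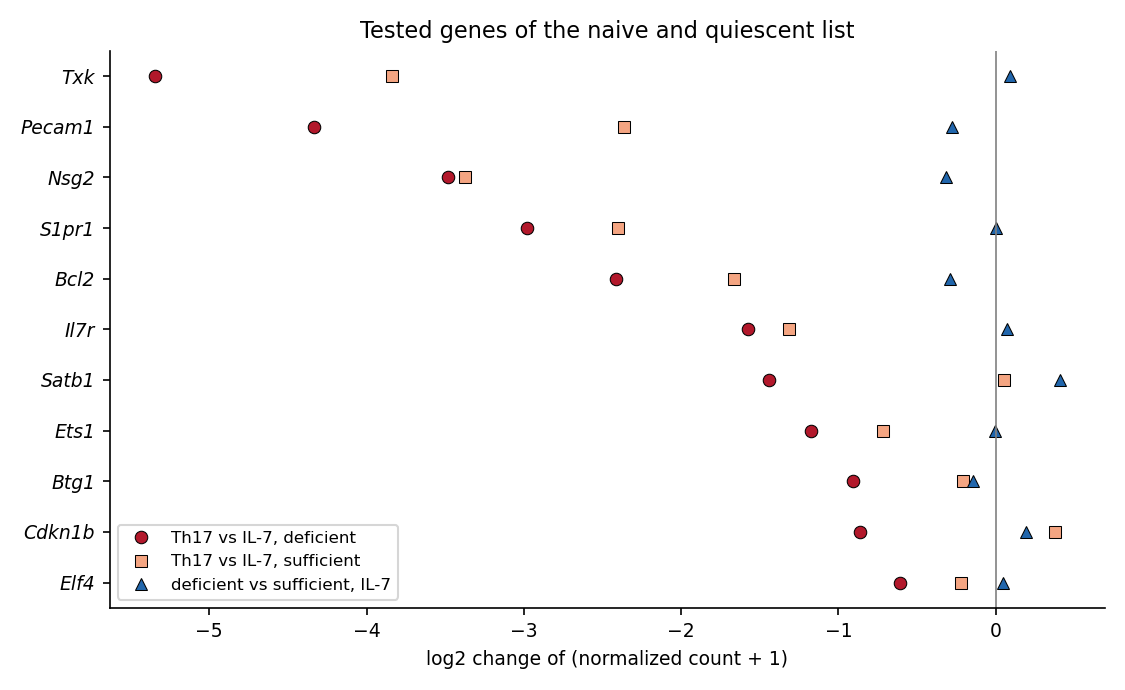
Log2 changes of 11 of the 12 tested genes of the naive and quiescent list, with circles for Th17 against IL-7 in deficient cells, squares for the same in sufficient cells and triangles for deficient against sufficient IL-7 cells. Triangles lie near 0, and Txk and Pecam1 lie farthest to the left in deficient cells.

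A list drawn around the S1P pathway of lymphocyte exit also holds the integrin genes Itgal and Itgb7. Of its 27 genes, 6 could be named and tested. Itgal, the alpha chain of the integrin LFA-1, fell in IL-7 deficient cells by 0.40 on the log2 scale (limma adjusted p = 0.00879), the 1 call of the list there. It did not pass once the 4 libraries numbered like BASAL957 were dropped (limma adjusted p = 0.162), nor with those numbered like BASAL959 dropped (limma adjusted p = 0.0693). Polarization of sufficient cells lowered 4 of 6, namely S1pr1, Dock2 (-1.39), Coro1a (-1.03) and Itgb7 (-1.0), and raised Gnai3 (0.45) and Itgal (0.41), all as log2 changes. The median of the 6 was -1.02, beside 36.7% of named genes called lower, 40.2% called higher and a median of 0.04. Dock2 and Coro1a act on the actin cytoskeleton of migrating lymphocytes, and Gnai3 encodes an inhibitory G protein subunit of the kind S1PR1 couples to. In deficient cells 4 of 6 fell, Itgb7 (-2.09), Dock2 (-1.72) and Coro1a (-1.27) beside S1pr1, and Gnai3 rose by 0.24. The median of the 6 was -1.49, beside 51.4% of named genes called lower, 28.3% called higher and a median of -0.36.

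Of 19 genes of inhibitory receptor signalling around PECAM1, 12 were tested and 0 were called in IL-7 cells with limma, where 2 (Pecam1 and Ceacam1) had an unadjusted p under 0.05. Polarization of sufficient cells raised 4 of 12 and lowered 6, with a median log2 change of -0.22. Of the named genes 40.2% were called higher and 36.7% lower, with a median of 0.04, and nothing particular to this list is read from its counts. The integrin subunits moved apart, since Itgb3 fell by 3.71 and Itgav rose by 1.58. The adaptor gene Pag1 (-1.55) and the collagen receptor gene Lair1 (-1.38) fell. In deficient cells 3 of 12 rose and 7 fell, with a median of -0.48, close to the 28.3% of named genes called higher, the 51.4% called lower and their median of -0.36. The log2 changes were -6.32 for Itgb3, -2.68 for Lair1, -2.07 for Pag1 and -1.04 for the kinase gene Lck.

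Of 24 genes of SATB1's chromatin partners, 10 were tested and 0 were called in IL-7 cells with limma, where 3 (Satb1, Mta2 and Smarca4) had an unadjusted p under 0.05. Polarization of sufficient cells lowered 6 of 10 and raised 1, with a median log2 change of -0.39, beside 36.7% of named genes called lower, 40.2% called higher and a median of 0.04. The acetyltransferase gene Kat2b (-2.31), Tcf12 (-1.08) and Runx1 (-0.86) fell, and the cohesin gene Rad21 rose by 0.87. In deficient cells 8 of 10 fell and 2 rose, with a median of -0.95, beside 51.4% of named genes called lower, 28.3% called higher and a median of -0.36. The log2 changes were -2.68 for Kat2b, -1.48 for Tcf12, -1.12 for the corepressor gene Ctbp1 and -0.99 for Runx1.

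Among 5268 other named genes with a mean of at least 50 normalized counts, those with the highest Pearson r to each gene over the 16 libraries were sought on the log2 scale. Pecam1 was closest to A230050P20Rik (r = 0.994), Slc9a8 (r = 0.993) and Hcst (r = 0.993). Satb1 was closest to Pde4b (r = 0.972), Fam46a (r = 0.958) and Zfp395 (r = 0.953). These 3 had log2 changes of -0.07, -0.06 and -0.12 on polarization of sufficient cells and -1.66, -1.49 and -2.48 in deficient cells. That is the shape seen for Satb1, which the choice by r over these same libraries builds in. S1pr1 was closest to 1300002E11Rik (r = 0.997), Gm17552 (r = 0.996) and Tnrc6b (r = 0.995). The libraries fall into 4 groups, so r mostly reflects the group levels, and all genes searched are on the authors' list.

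Markers of other cell types were low beside the T cell markers, and those with values are on the authors' list as well. Endothelial cells carry Pecam1 too, but of 8 endothelial markers only Eng had values, and 1 marker cannot show whether such cells were present. Eng stood at 130 to 274 normalized counts in Th17 deficient, 166 to 211 in Th17 sufficient, 53.4 to 63.3 in IL-7 deficient and 54.5 to 93.0 in IL-7 sufficient libraries. Its levels were higher in the Th17 groups and those of Pecam1 lower, and a link was not tested. The B cell genes Cd79a and Blk, 2 of 8, summed to 53.3 to 180.0 in Th17 deficient, 126 to 300.2 in Th17 sufficient, 114 to 181 in IL-7 deficient and 283 to 890.1 in IL-7 sufficient libraries. Cd8b1, 1 of 4 CD8 T cell markers, stood at 73.3 to 116 in Th17 deficient, 150.3 to 175 in Th17 sufficient, 323 to 430.0 in IL-7 deficient and 331 to 534 in IL-7 sufficient libraries. Klre1, 1 of 6 natural killer cell markers, stood at 48.3 to 105 in Th17 deficient, 171 to 252 in Th17 sufficient, 0 to 6.42 in IL-7 deficient and 32.3 to 50.6 in IL-7 sufficient libraries. Cd68, 1 of 9 myeloid markers, stood at 52.5 to 66.8 in Th17 deficient, 120.5 to 175 in Th17 sufficient, 104 to 132 in IL-7 deficient and 92.1 to 129 in IL-7 sufficient libraries. No platelet marker had a value. Cd8b1 was lower in both Th17 groups, as Pecam1 and S1pr1 were, and the part of these cell types in the results was not tested.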

How the data were processed

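Poly(A) RNA of 16 libraries was sequenced from strand-specific libraries, per the labels' protocols. Per the submitters' processing notes, Trim Galore 0.4.4, STAR 2.6, featureCounts, edgeR and DESeq2 were used, with build NCBIM37; the sources used here give no further settings. Per the file headers, the deposited table holds the authors' log2 fold change, its error, a test statistic (a score) and p-values, raw and adjusted, for 8552 genes, beside normalized counts (a signal: counts over a size factor) per library.

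The deposited normalized counts had lost their decimal points, and their rows were not in the order of the names. Values are whole reads times 1 step per library, with 0 nonzero values left unresolved. The power of 10 was set by a negative binomial likelihood within each group. It raised 8.50% of nonzero values, among them 2 of Pecam1, 1 of Satb1 and 1 of S1pr1. Of 17850 rows 15084 were settled at a posterior of 0.95. Names were joined by the authors' log2 fold change and error within 1e-06, for 7815 genes. Of 1000 decoys, 3 joined on the best powers and 2 on next-best ones. These settings were chosen after first results were seen, and the genes and lists with earlier results of these data known.

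limma 3.58.1 in R 4.3.3 was fitted with a mean-variance trend to log2(normalized count + 1), over 16 libraries with 4 group means, for settled rows with a mean of at least 10, and p-values were adjusted by Benjamini-Hochberg over all 13978 rows at 0.05. A fold change on this scale understates low genes. Values were scaled by the size factor of each library, and library totals did not enter the fit. The table's values did not qualify as raw counts, so limma replaced count models. In each list the text names the called genes with the largest log2 change, up to 4, with Il7r and Bcl2 added by name, and Sin3a; 1 gene of the naive list enters its counts and medians but is not reported here; genes most like each of the 3 were named by r. Cdkn1b, Btg1, Gnai3, Ceacam1, Mta2 and Smarca4 were also named, being in small counts, after their values were seen. Same-numbered IL-7 libraries deviated together (r = 0.350, 0.104, 0.431 and 0.479), a pairing drawn from the data. In the other comparisons r was positive as well, from 0.040 to 0.253. The fit was tested on data simulated for the IL-7 comparison, with a spread that was set and not estimated from these libraries. It called 26% of rows changed 1.25-fold, 58% of those changed 1.5-fold and 90% of those changed 2-fold. Small changes in IL-7 cells can therefore be missed.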

Additional observations from a re-analysis of the deposited data

Results flagged for a closer look

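Satb1 differed in opposite directions between deficient and sufficient libraries of the 2 cultures. It was higher in IL-7 deficient than in IL-7 sufficient libraries in 4 of 4 numbers and lower in Th17 deficient than in Th17 sufficient libraries in 4 of 4, and the log2 change in Th17 cells minus that in IL-7 cells was -1.50. The difference was not tested, since the Th17 contrast made the gene nameable, and the change in IL-7 cells did not pass its own test. The IL-7 deficient and IL-7 sufficient libraries overlapped for Satb1. The share of all rows with such opposite signs was not counted.

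Sin3a in IL-7 deficient cells had 1 library, BASALTAM955, apart from the other 3. Its gap to the nearest was 0.862 of the group's range, past Dixon's 95% critical value for 4 samples. Chance flags about 1 in 20 groups, and 16 groups were screened.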

How the results depend on the processing

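Over 29 alternatives, the falls of Pecam1 and S1pr1 on polarization of sufficient and deficient cells, and of Satb1 in deficient cells, kept their direction and passed limma's test in 29 of 29. Pecam1 in IL-7 cells passed only when the IL-7 libraries were fitted alone (log2 change -0.28, limma adjusted p = 0.0489), over a range of adjusted p from 0.0489 to 0.442, and there 3 naive-list genes were called lower against 0. Leaving out replicates moved S1pr1 in IL-7 cells between -0.14 and 0.087, with a change of sign in 8 fits, and Satb1 on polarization of sufficient cells between -0.11 and 0.17. It moved the rows called in IL-7 cells between 44 and 738, and the naive genes higher on polarization of sufficient cells between 0 and 1. With the number in the titles as a replicate block, Pecam1 in IL-7 cells had a limma adjusted p of 0.107 and Satb1 0.138, and 927 rows were called against 629; the block changed no call of the 3 genes. The planned fits with edgeR and DESeq2 were not run, because the deposited values are normalized and not raw counts. They were not run on the restored reads either. The causes were not tested. Depth limits low genes; the 3 genes had at least 229 normalized counts in every library.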
